A study of Mus musculus with 6 samples.

Results

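Neuregulin 1 and its relatives of the epidermal growth factor (EGF) family signal through the 4 ErbB receptor tyrosine kinases. The 7 genes described here are the ligand genes Nrg1, Hbegf and Btc and the receptor genes Egfr, Erbb2, Erbb3 and Erbb4, which were selected by symbol from the 33696 genes of the count matrices. They matched 8 rows, because the symbol Nrg1 stood beside 2 identifiers. ENSMUSG00000118541 had 0 UMIs in any barcode, so that all values of Nrg1 come from ENSMUSG00000062991.

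The libraries were made from nuclei of left ventricles of male mice at 12 weeks of age, in 3 groups of 2 libraries each. WT-CD mice were wild-type littermates on control diet. R403Q-CD mice were Myh6+/R404Q (R403Q), with a missense mutation of the cardiac myosin heavy chain that serves as a model of hypertrophic cardiomyopathy, on the same diet. R403Q-EMPA mice had the same genotype and the same diet to which empagliflozin (EMPA), which blocks the renal glucose transporter SGLT2, had been added at 0.15 mg/g of diet, which is about 15 mg/kg body weight. Feeding started when the mice were 9 to 10 weeks old. The labels also give the diets a length of 16 weeks, which cannot be reconciled with an age of 12 weeks. The methods describe hearts removed for myocardial RNA sequencing 2 weeks into treatment, which matches these ages, without naming the nuclei. No group combined wild type with EMPA, so that the effect of EMPA was measured in mutant hearts alone. The labels do not say whether the 2 libraries of a group came from separate animals, and p-values measure the spread between libraries, which may be technical.

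In the heart, neuregulin 1 is made by endocardial and some endothelial cells and reaches cardiomyocytes as a paracrine signal. It binds ErbB4 or ErbB3, while ErbB2 has no ligand of its own and acts as the partner of the other receptors. Heparin-binding EGF-like growth factor (Hbegf) and betacellulin (Btc) bind both EGFR and ErbB4. The pathway is known for its part in trabeculation of the embryonic ventricle and in the survival of adult cardiomyocytes.

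Of 69249 barcodes, 46005 nuclei were kept, between 6409 and 9514 per library, with median depths of 2663 to 4065 UMIs per nucleus. Marker lists placed 23 of 24 clusters in 11 classes, whose names end in "-like" since cell types were not labelled. The 7 genes and their pathway were kept out of the genes used for clustering. The marker list of a class was highest in that class in every library, apart from the lymphoid-like nuclei of R403Q-EMPA replicate 2, where the cardiomyocyte list summed to 16688 CPM (counts scaled to 1e+06 UMIs), against 2379 to 4712 in the other 5 libraries. The make-up of 3 classes differed between libraries. The cardiomyocyte-like cluster led by Ryr3 and Nppb (cluster 14) held 715 and 499 nuclei in the R403Q-EMPA libraries against 24 to 172 in the other 4. In R403Q-EMPA replicate 1 alone, 537 of the fibroblast-like nuclei lay in the cluster led by Ltbp2, Cilp, Thbs4 and Postn (cluster 6) and 902 of the endothelial-like nuclei in the cluster with Sox17 and Gja5 (cluster 10), against 36 to 124 and 130 to 276 in the other 5 libraries. Pairs of libraries shared between 23 and 56 barcodes, at most 0.489% of the smaller library.

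Levels below are CPM, the UMIs of a gene over all UMIs of a class in a library. They compare classes and groups for 1 gene. They do not rank genes against each other, since 3′ counts are not scaled for how each transcript is captured. Groups were compared on UMIs summed per library and class with edgeR's quasi-likelihood test, with adjusted p-values under 0.05 as the threshold for a call. Fold changes are log2 values with their standard error (SE). The comparisons of R403Q-CD with WT-CD and of R403Q-EMPA with R403Q-CD share the R403Q-CD libraries, and both comparisons of R403Q-EMPA share its libraries.

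The 3 genes with the most UMIs were Erbb4, Egfr and Nrg1. Erbb4 and Nrg1 each had a class of their own, whereas Egfr was spread over several (the plot of levels by class). Nrg1 was an endocardial-like transcript and Erbb4 a cardiomyocyte-like one. Egfr was highest in fibroblast-like nuclei and lowest in cardiomyocyte-like nuclei. Hbegf was spread over smooth muscle-like, endocardial-like and cardiomyocyte-like nuclei. Erbb2 was low in every class, and Btc and Erbb3 were counted mostly in cardiomyocyte-like nuclei, at levels under 10 CPM.

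**Figure D1:**
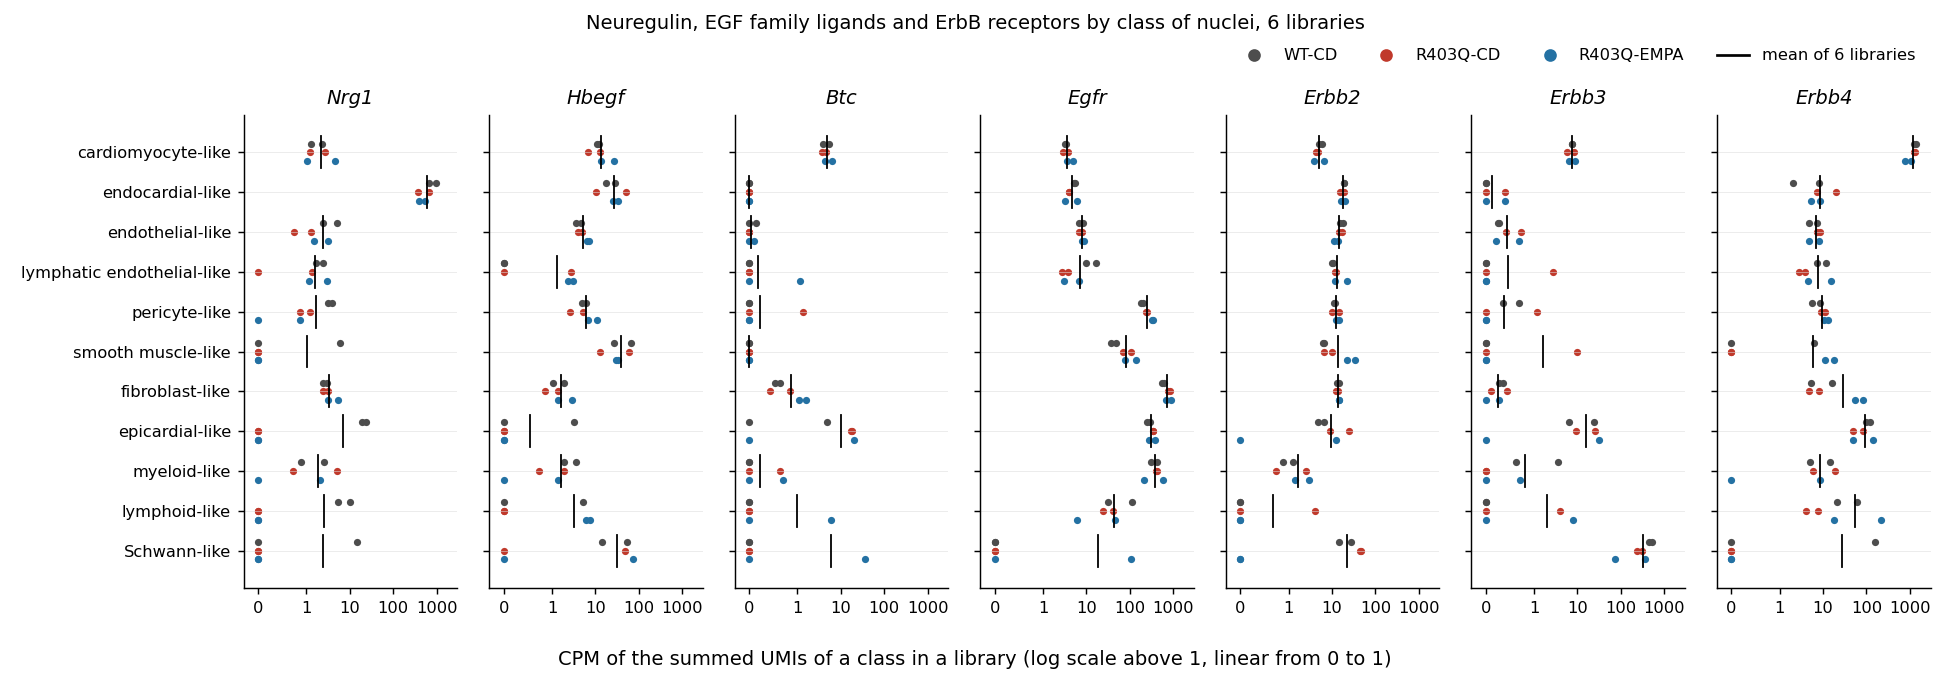
Level of each gene (CPM, logarithmic axis above 1 and linear from 0 to 1) in 11 classes of nuclei; points are libraries coloured by group and bars the mean of 6 libraries. The 6 Nrg1 points of endocardial-like nuclei lie between 374 and 987 CPM and the 6 Erbb4 points of cardiomyocyte-like nuclei between 757 and 1385 CPM, each above every point of the other classes.

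Over the 10 classes that were tested, 33 of 70 combinations of gene and class passed the filter on low counts: 4 classes for Nrg1, 5 for Hbegf, 2 for Btc, 8 for Egfr, 5 for Erbb2, 1 for Erbb3 and 8 for Erbb4. In R403Q-CD against WT-CD, edgeR called 0 of them, where 0.0170% of all 100004 combinations of gene and class were called. At an unadjusted p under 0.05 there were 4, where 4.33% of all combinations were. Fits of the same sums by DESeq2 also called 0, where 0.0646% of all combinations were called. In R403Q-EMPA against R403Q-CD, 1 was called, Erbb4 in fibroblast-like nuclei, where 0.306% of all combinations were called and 0.208% were higher, and 6 had an unadjusted p under 0.05 where 9.74% of all did. In R403Q-EMPA against WT-CD, 2 were called, the same Erbb4 and Egfr in pericyte-like nuclei, where 1.38% of all combinations were called and 0.712% were higher, and 7 had an unadjusted p under 0.05 where 12.7% of all did. All called values were higher in R403Q-EMPA. The median log2 fold change over the 33 combinations was -0.0045, 0.16 and 0.25 in the 3 comparisons, and the median over all genes of a class lay between -0.015 and 0.010.

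**Figure D2:**
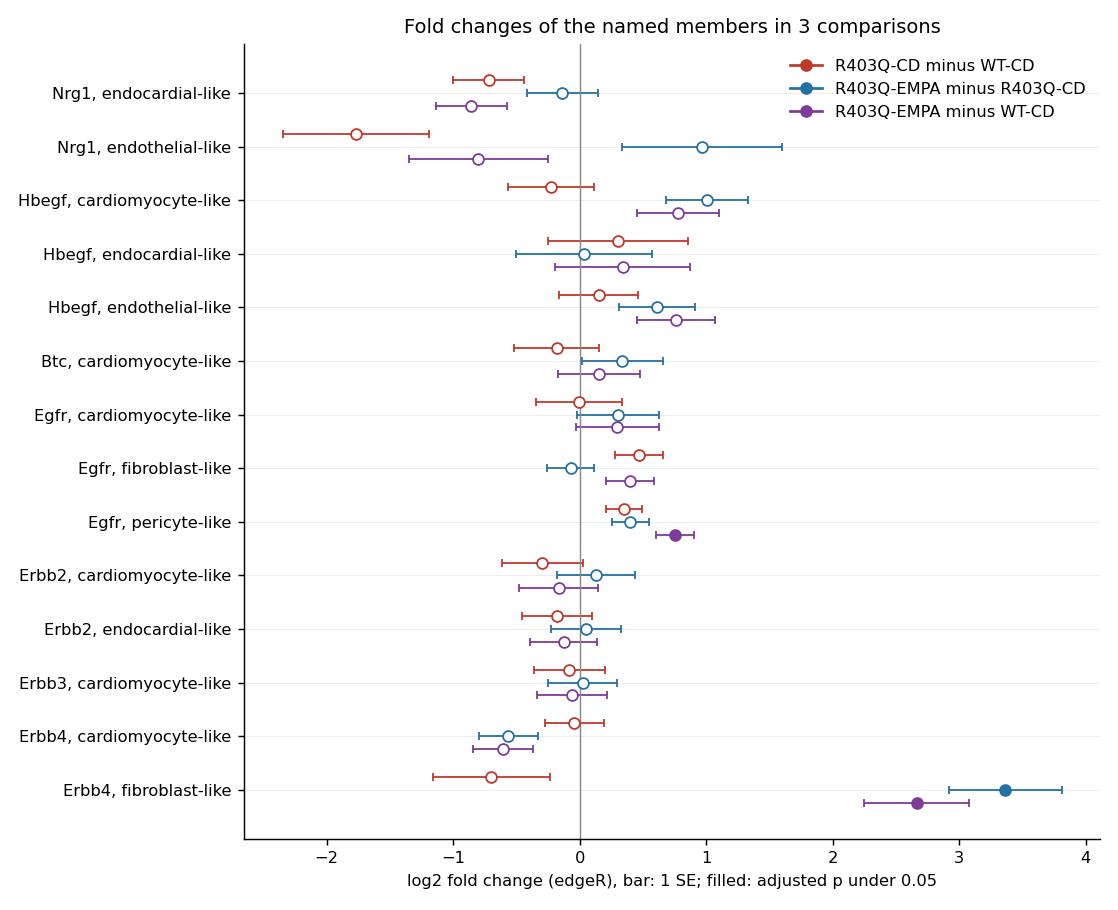
Fold changes (log2, edgeR) of the named combinations of gene and class in the 3 comparisons; bars are 1 SE and filled points passed an adjusted p of 0.05. Only Erbb4 in fibroblast-like nuclei (3.36 and 2.66 in the 2 comparisons of R403Q-EMPA) and Egfr in pericyte-like nuclei (0.75 against WT-CD) are filled.

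Nrg1, the neuregulin 1 gene, was at 675 and 987 CPM in endocardial-like nuclei of the WT-CD libraries, at 654 and 374 CPM in R403Q-CD and at 545 and 398 CPM in R403Q-EMPA. Both WT-CD libraries were above all 4 mutant libraries, and the 2 mutant groups overlapped. The margin was narrow, since the lower WT-CD library and the higher R403Q-CD library differed little beside the gap within R403Q-CD. The log2 fold change was -0.72 (SE 0.28) in R403Q-CD against WT-CD, with an adjusted p of 0.9997 by edgeR. It was -0.86 (SE 0.28) in R403Q-EMPA against WT-CD, with an adjusted p of 0.165, and -0.14 (SE 0.28) in R403Q-EMPA against R403Q-CD, with an adjusted p of 0.93. None was called. Without the filter on low counts, both differences from WT-CD passed the threshold, at adjusted p-values of 0.0392 and 0.000152 by edgeR. Leaving out R403Q-CD replicate 2 or WT-CD replicate 2 took the first difference from -0.72 to -0.36, and leaving out R403Q-CD replicate 1 took it to -1.17. Without WT-CD replicate 2 the difference of R403Q-EMPA from WT-CD was -0.49, and without WT-CD replicate 1 it was -1.14, at an adjusted p of 0.0403 by edgeR.

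Endocardial-like nuclei, which are 3237 of the nuclei kept, held between 92.5% and 96.5% of all Nrg1 UMIs of a library. No other class had a mean above 7.14 CPM, the mean of epicardial-like nuclei, which rested on 11 UMIs, all in WT-CD. In endothelial-like nuclei, the larger vascular class, Nrg1 was at 5.06 and 2.43 CPM in WT-CD, 0.73 and 1.26 CPM in R403Q-CD and 1.496 and 3.12 CPM in R403Q-EMPA. R403Q-CD lay below both other groups there, on 76 UMIs in all libraries. Against WT-CD, its log2 fold change of -1.77 (SE 0.58) was not called (adjusted p = 0.9999 by edgeR). Of the 21 UMIs of WT-CD replicate 1, 17 came from the 32 nuclei of that library in a cluster of cycling nuclei with Mki67 and Top2a. Without that cluster the WT-CD libraries were at 0.998 and 2.45 CPM and the R403Q-CD libraries at 0.758 and 1.28 CPM, so that they overlapped.

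Nrg1 was not seen in most endocardial-like nuclei at this depth. With every nucleus thinned to 500 UMIs, the WT-CD libraries had an Nrg1 UMI in 18.0% and 19.1% of nuclei, the R403Q-CD libraries in 13.4% and 8.07% and the R403Q-EMPA libraries in 8.22% and 11.3%. The WT-CD shares were above all mutant shares. Without thinning, the shares ran from 20.1% to 37.3%, at median depths of 2611 to 4441 UMIs. Cardiomyocyte-like nuclei, which are not a known source of neuregulin 1, had a mean thinned share of 0.153% (SD 0.0547, n = 6) at median depths of 6888.5 to 12099.5 UMIs, and no class outside the endocardium had a higher mean. Endocardial markers were lower in R403Q-EMPA alone. The 8 genes of the list summed to 15699 and 16308 CPM in WT-CD, 17610 and 15906 CPM in R403Q-CD, and 10150 and 12782 CPM in R403Q-EMPA, with no marker at 0 in any library. The endothelial list summed to 6043 to 6704 CPM in endocardial-like nuclei of the 4 control-diet libraries and to 7314 and 7095 CPM in R403Q-EMPA. The part of these markers in the Nrg1 values of R403Q-EMPA was not tested.

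**Figure D3:**
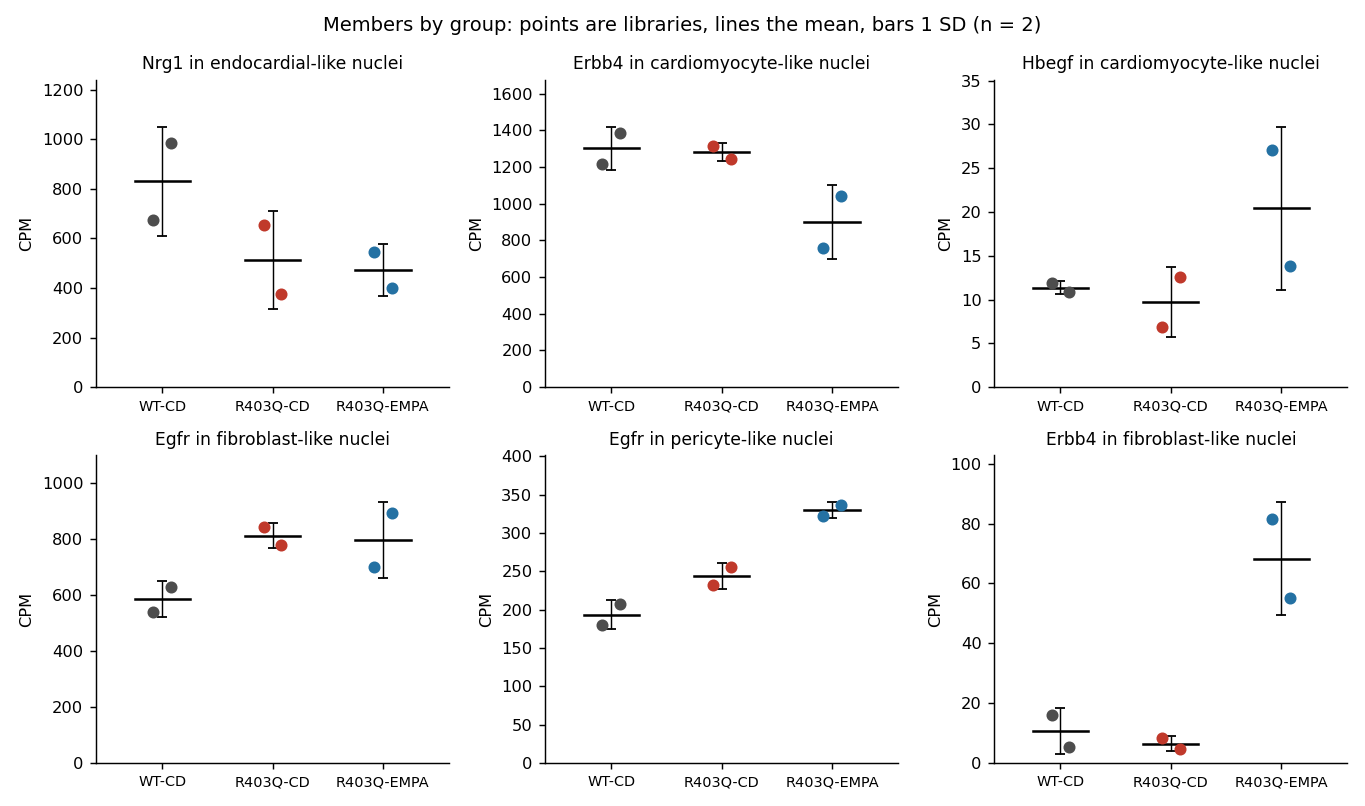
Levels (CPM, axes from 0) of 6 combinations of gene and class by group; points are libraries, horizontal lines the mean and bars 1 SD (n = 2). Nrg1 in endocardial-like nuclei is highest in WT-CD (675 and 987 CPM), Erbb4 in cardiomyocyte-like nuclei is lowest in R403Q-EMPA (757 and 1040 CPM), and the 3 groups do not overlap for Egfr in pericyte-like nuclei (180 to 337 CPM).

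Hbegf (ENSMUSG00000024486), which encodes the heparin-binding ligand of EGFR and ErbB4, had no single source. Its mean was 38.4 CPM (SD 20.5, n = 6) in smooth muscle-like nuclei, on 33 UMIs that did not pass the filter, 27.6 CPM (SD 14.4) in endocardial-like nuclei and 13.8 CPM (SD 6.88) in cardiomyocyte-like nuclei. These neighbours overlapped between libraries. Pericyte-like nuclei, at a mean of 6.09 CPM, and endothelial-like nuclei, at 5.10 CPM, followed. The mean of 31.4 CPM in Schwann-like nuclei rested on 6 UMIs. By UMIs, cardiomyocyte-like nuclei held between 35.9% and 69.1% of Hbegf in a library.

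In cardiomyocyte-like nuclei, Hbegf was at 11.9 and 10.8 CPM in WT-CD, 6.86 and 12.6 CPM in R403Q-CD and 27.0 and 13.9 CPM in R403Q-EMPA. Both R403Q-EMPA libraries were above the other 4, by a small margin in replicate 2. The log2 fold change was 1.01 (SE 0.32) against R403Q-CD, with an adjusted p of 0.237 by edgeR, 0.78 (SE 0.33) against WT-CD and -0.23 (SE 0.34) for R403Q-CD against WT-CD. None was called, although both differences of R403Q-EMPA passed the threshold when no filter on low counts was set. Without R403Q-EMPA replicate 1, the 1.01 became 0.48. Hbegf was unevenly placed among the 3 cardiomyocyte-like clusters, with a mean over libraries of 24.97 CPM (SD 8.07, n = 6) in the Ryr3 and Nppb cluster against 8.43 CPM (SD 2.16) in the largest cluster (cluster 13). In the former, 323 of 517 UMIs came from R403Q-EMPA replicate 1. The Ryr3 and Nppb cluster held 715 and 499 nuclei in R403Q-EMPA, 84 and 172 in R403Q-CD, and 45 and 24 in WT-CD. Its part in the group difference was not tested.

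In endocardial-like nuclei, Hbegf was at 27.9 and 17.2 CPM in WT-CD, 51.7 and 10.3 CPM in R403Q-CD and 24.9 and 33.7 CPM in R403Q-EMPA. The R403Q-CD libraries held both the highest and the lowest value, and all groups overlapped (log2 fold changes 0.30, 0.03 and 0.34). In endothelial-like nuclei, it was at 4.58 and 3.64 CPM in WT-CD, 4.84 and 3.91 CPM in R403Q-CD and 7.05 and 6.59 CPM in R403Q-EMPA. R403Q-EMPA was above both other groups. The log2 fold change was 0.61 (SE 0.30) against R403Q-CD and 0.76 (SE 0.31) against WT-CD, with adjusted p-values of 0.557 and 0.351 by edgeR, and neither was called.

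Btc (ENSMUSG00000082361), the betacellulin gene, had 370 UMIs in the classes, of which 310 were in cardiomyocyte-like nuclei. No UMI was found in endocardial-like nuclei, which allows at most 1.19 to 2.35 CPM in a library (3 counts, counting error only), and 2 UMIs were found in endothelial-like nuclei. It was at 3.88 and 5.31 CPM in cardiomyocyte-like nuclei of WT-CD, 4.57 and 3.68 CPM in R403Q-CD and 6.39 and 4.42 CPM in R403Q-EMPA. The groups overlapped, with log2 fold changes of -0.18, 0.34 and 0.16. Its mean of 10.0 CPM in epicardial-like nuclei rested on 9 UMIs.

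Among the receptors, Erbb4 (ENSMUSG00000062209) was the one with a clear cardiomyocyte pattern. It encodes the receptor that binds neuregulins directly and carries their signal in cardiomyocytes. It was at 1219 and 1385 CPM in cardiomyocyte-like nuclei of WT-CD, 1315 and 1246 CPM in R403Q-CD and 757 and 1040 CPM in R403Q-EMPA. The R403Q-EMPA libraries were below the other 4, which overlapped. R403Q-EMPA against R403Q-CD gave a log2 fold change of -0.56 (SE 0.23) with an adjusted p of 0.358 by edgeR. It was -0.61 (SE 0.23) against WT-CD, with an adjusted p of 0.191, and -0.04 (SE 0.23) in R403Q-CD against WT-CD. None was called, and the value against R403Q-CD ran from -0.85 to -0.33 over fits that left out 1 library.

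Cardiomyocyte-like nuclei held between 93.7% and 98.8% of the Erbb4 UMIs of a library. Thinned to 500 UMIs, an Erbb4 UMI was found in 40.7% and 45.2% of these nuclei of the WT-CD libraries, in 43.9% and 40.6% of those of R403Q-CD and in 27.7% and 38.8% of those of R403Q-EMPA. The R403Q-EMPA shares were the lowest. Without thinning, 80.9% to 95.4% of the nuclei had an Erbb4 UMI. Median depths were 6888.5 to 12099.5 UMIs. Among the other classes the mean thinned share ran from 0.296% (SD 0.106, n = 6) in endothelial-like nuclei, at median depths of 2117 to 3419 UMIs, to 2.19% (SD 1.81) in epicardial-like nuclei, at 2806 to 5115.5 UMIs.

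The lower Erbb4 of R403Q-EMPA was also seen inside each of the 3 cardiomyocyte-like clusters, without passing the test in any of them. In the largest cluster it was at 1226 and 1408 CPM in WT-CD, 1371 and 1356 CPM in R403Q-CD, and 977 and 1198 CPM in R403Q-EMPA. In the Ryr3 and Nppb cluster it was at 936 and 1045 CPM in WT-CD, 876 and 911 CPM in R403Q-CD, and 637 and 803 CPM in R403Q-EMPA. In the cluster with Nppa and Tbx5 (cluster 12) it was at 1548 and 1097 CPM in WT-CD, 1174 and 1175 CPM in R403Q-CD, and 661 and 847 CPM in R403Q-EMPA. R403Q-EMPA lay below both other groups in each of the 3, which are parts of the same libraries. How many of all genes separate in this way was not counted. The log2 fold changes against R403Q-CD were -0.72, -0.37 and -0.34 in clusters 12, 13 and 14, beside -0.56 in the whole class. Levels differed between the clusters as well, with means of 1256 CPM in cluster 13 and 868 CPM in cluster 14, which held more nuclei in either R403Q-EMPA library than in any of the other 4.

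The larger of the called fold changes was that of Erbb4 in fibroblast-like nuclei. It was at 16.0 and 5.23 CPM in WT-CD, 8.19 and 4.69 CPM in R403Q-CD, and 81.6 and 55.0 CPM in R403Q-EMPA. Both R403Q-EMPA libraries were far above the other 4, among which WT-CD replicate 1 was highest. Against R403Q-CD the log2 fold change was 3.36 (SE 0.44), with an adjusted p of 0.0296 by edgeR, where 0.338% of all genes of the class were called. Against WT-CD it was 2.66 (SE 0.42), with an adjusted p of 0.0247, where 1.23% were called. It was -0.70 (SE 0.46) in R403Q-CD against WT-CD and was not called.

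Few nuclei carried this difference. Of 14145 fibroblast-like nuclei, 52 (0.368%) had 5 or more Erbb4 UMIs, and they held 893 of the 1219 Erbb4 UMIs of the class (73.3%). The WT-CD libraries had 7 and 0 such nuclei, the R403Q-CD libraries 1 and 0, and the R403Q-EMPA libraries 30 and 14. Without these nuclei, Erbb4 was between 4.69 and 7.64 CPM in every library, beside 4.82 to 8.51 CPM in endothelial-like nuclei. Since the nuclei were picked for their Erbb4 UMIs, a low remainder follows from the selection and is no separate result. The threshold of 5 UMIs was chosen after the values were seen.

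Of the 52 nuclei, 47 lay in the cluster led by Ltbp2, Cilp, Thbs4 and Postn, matricellular and fibrosis-related genes. That cluster drew 111 and 64 nuclei from the WT-CD libraries, 36 and 73 from R403Q-CD, and 537 and 124 from R403Q-EMPA. Erbb4 within it was at 274 and 3.16 CPM in WT-CD, 11.2 and 0 CPM in R403Q-CD, and 191 and 591 CPM in R403Q-EMPA. Inside the cluster, R403Q-EMPA overlapped with WT-CD, whose replicate 1 was above R403Q-EMPA replicate 1, and lay above R403Q-CD in both libraries. The log2 fold changes within the cluster were 6.72 (SE 1.395) against R403Q-CD and 1.30 (SE 0.70) against WT-CD, and neither was called (adjusted p = 0.127 and 0.717 by edgeR). Without the cluster, the log2 fold change fell to 0.58 (adjusted p = 0.641) against R403Q-CD and to 0.84 (adjusted p = 0.445) against WT-CD by edgeR. In the 2 largest fibroblast-like clusters, the values against R403Q-CD were -0.09 and -0.04. In the whole class, the call against R403Q-CD was lost without R403Q-CD replicate 1, R403Q-CD replicate 2 or R403Q-EMPA replicate 1, where the values were 3.83, 3.01 and 3.07, at adjusted p-values of 0.302, 0.235 and 0.131 by edgeR. The difference from WT-CD lost its call without R403Q-EMPA replicate 1 (2.37, adjusted p = 0.126) and in the fit of the 4 libraries compared (2.67, adjusted p = 0.0518).

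**Figure D4:**
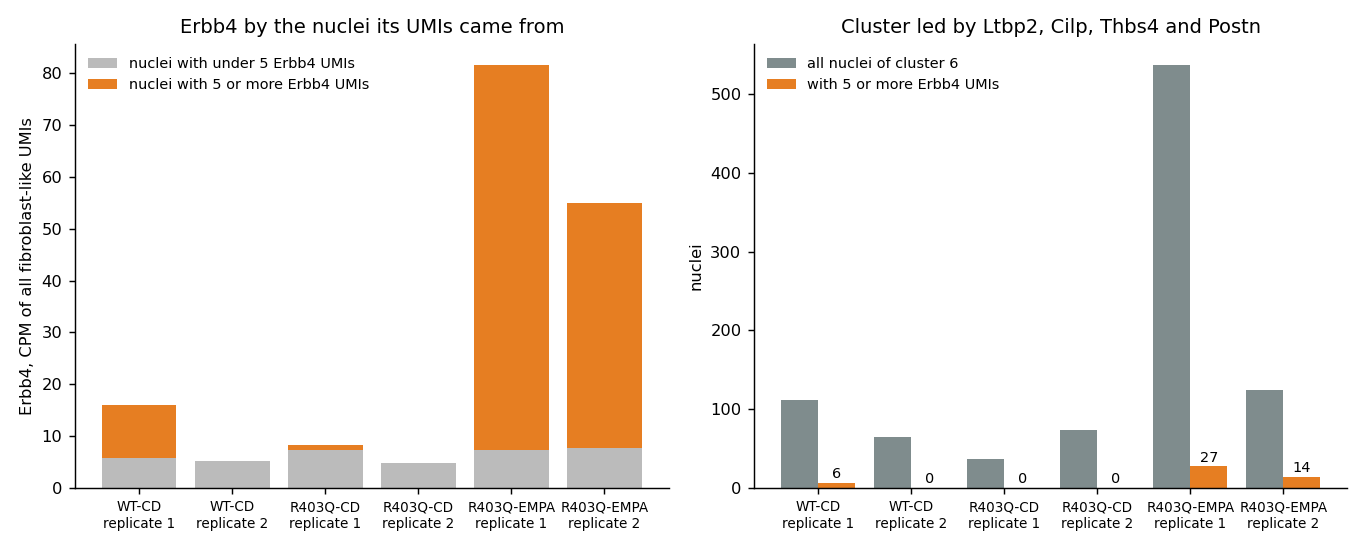
Left, Erbb4 in fibroblast-like nuclei (CPM of all UMIs of the class) by library, split by whether the nucleus had 5 or more Erbb4 UMIs; right, number of nuclei in cluster 6 and those among them with 5 or more Erbb4 UMIs. Nuclei under the threshold give 4.69 to 7.64 CPM in all 6 libraries, and 27 and 14 nuclei of the cluster pass it in R403Q-EMPA, against 6 in 1 WT-CD library and 0 in the other 3.

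The 52 nuclei were set against the remaining nuclei of that cluster in other genes, as a description of nuclei picked for Erbb4. Cadm1, a cell adhesion gene, was at 769 CPM against 14.7 CPM and Trpm3, a cation channel gene, at 591 against 20.5 CPM. Tbx20, a cardiac transcription factor, was at 2602 against 734 CPM and had a UMI in 88.5% of the nuclei. The cardiomyocyte list was no higher in them, at 1398 against 1603 CPM. The fibroblast list was lower, at 5558 against 9915 CPM, with Tcf21 at 0. The smooth muscle list was at 403.1 against 106 CPM with 3 of 8 markers at 0, the pericyte list at 645 against 294 CPM, and the Schwann list at 199 against 472 CPM with 6 of 8 markers at 0. Over the whole class, the cardiomyocyte list summed to 1244 and 1097 CPM in WT-CD, 1688 and 1804 CPM in R403Q-CD, and 1755 and 1775 CPM in R403Q-EMPA, and the mutant groups overlapped in it. The part of these lists in the Erbb4 values was not tested.

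Elsewhere, Erbb4 had a mean of 90.9 CPM (SD 38.0, n = 6) in epicardial-like nuclei, from 105 UMIs. It was at 123 and 98.4 CPM there in WT-CD, 50.1 and 82.3 CPM in R403Q-CD and 49.2 and 142 CPM in R403Q-EMPA, and no comparison was called. In pericyte-like, myeloid-like, endocardial-like, lymphatic endothelial-like and endothelial-like nuclei, the means were between 6.83 and 9.45 CPM, and these neighbours overlapped.

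Egfr (ENSMUSG00000020122), the EGF receptor gene, had the reverse placement of Erbb4. Fibroblast-like nuclei held between 83.0% and 85.5% of its UMIs in a library. Its mean was 730 CPM (SD 133, n = 6) in fibroblast-like, 388 CPM (SD 120) in myeloid-like, 315 CPM (SD 53.3) in epicardial-like and 256 CPM (SD 62.7) in pericyte-like nuclei. Fibroblast-like nuclei were above myeloid-like nuclei in each of the 6 libraries, whereas the ranges of the next 3 overlapped. Cardiomyocyte-like nuclei were last in this order, at 2.91 to 4.94 CPM, behind endocardial-like nuclei at 3.16 to 5.91 CPM. There Egfr was at 3.41 and 3.23 CPM in WT-CD, 3.78 and 2.91 CPM in R403Q-CD and 3.65 and 4.94 CPM in R403Q-EMPA. R403Q-EMPA lay above WT-CD by a narrow margin, and no comparison was called (log2 fold changes -0.0045, 0.30 and 0.30). With no mitochondrial filter, the values of R403Q-CD and of R403Q-EMPA against WT-CD were 0.92 and 1.20 and were not called (adjusted p = 0.236 and 0.0676 by edgeR). Among fibroblast-like clusters, the mean was highest in the cluster with Pappa and Fgf10, at 1034 CPM.

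In fibroblast-like nuclei, Egfr was at 539 and 629 CPM in WT-CD, 843 and 779 CPM in R403Q-CD, and 700 and 891 CPM in R403Q-EMPA. Both WT-CD libraries were below all mutant libraries. R403Q-CD against WT-CD gave a log2 fold change of 0.47 (SE 0.19), with an adjusted p of 0.9995 by edgeR, and it was 0.40 (SE 0.19) in R403Q-EMPA against WT-CD, with an adjusted p of 0.372. The mutant groups overlapped (-0.07, SE 0.19). None was called.

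In pericyte-like nuclei, the cells that wrap capillaries, Egfr was at 180 and 207 CPM in WT-CD, 232 and 256 CPM in R403Q-CD, and 322 and 337 CPM in R403Q-EMPA. The 3 groups did not overlap. The log2 fold change in R403Q-EMPA against WT-CD was 0.75 (SE 0.15), with an adjusted p of 0.0154 by edgeR, and was called, beside 1.61% of all genes of the class. The steps from WT-CD to R403Q-CD, 0.35 (SE 0.15), and from R403Q-CD to R403Q-EMPA, 0.40 (SE 0.15), were not called, with adjusted p-values of 0.999 and 0.377. The call was lost, at adjusted p-values of 0.0640 to 0.0916, when any 1 of the 4 mutant libraries was left out. It was also lost with predicted doublets kept (0.59, adjusted p = 0.0764) and in a fit of the 4 compared libraries (0.75, adjusted p = 0.0664).

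The fibroblast list, whose cells have more Egfr, summed to 1004 and 428 CPM in pericyte-like nuclei of WT-CD, 433 and 460 CPM in R403Q-CD, and 651 and 537 CPM in R403Q-EMPA. It was highest in WT-CD replicate 1, the library with the lowest Egfr, and between the R403Q groups it moved with Egfr. The pericyte list was at 14930 and 14114 CPM in WT-CD, 13762 and 13938 CPM in R403Q-CD, and 12780 and 12114 CPM in R403Q-EMPA, the reverse order of Egfr. No marker of either list was at 0. The part of these lists in the Egfr values was not tested. In smooth muscle-like nuclei, Egfr was at 47.1 and 36.6 CPM in WT-CD, 68.7 and 109 CPM in R403Q-CD, and 140 and 79.4 CPM in R403Q-EMPA, on 76 UMIs. The R403Q groups lay above WT-CD there too, and no comparison was called (adjusted p of 0.440 for R403Q-EMPA against WT-CD by edgeR).

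Erbb2 (ENSMUSG00000062312), the receptor without a ligand, was low and even over the vascular and stromal classes. It ranged over the libraries from 15.5 to 20.1 CPM in endocardial-like, 11.1 to 17.8 CPM in endothelial-like, 12.5 to 14.9 CPM in fibroblast-like and 9.84 to 14.9 CPM in pericyte-like nuclei. Neighbours in this order overlapped. The mean of 22.1 CPM in Schwann-like nuclei rested on 4 UMIs. In endothelial-like nuclei it was at 15.4 and 17.8 CPM in WT-CD, 16.9 and 14.8 CPM in R403Q-CD, and 13.5 and 11.1 CPM in R403Q-EMPA. R403Q-EMPA lay below both other groups, and the log2 fold change of -0.42 (SE 0.21) against WT-CD was not called (adjusted p = 0.460 by edgeR). Cardiomyocyte-like nuclei lay below all of these ranges, at 6.46 CPM or less. There, Erbb2 was at 5.06 and 6.00 CPM in WT-CD, 4.77 and 4.36 CPM in R403Q-CD, and 6.46 and 3.90 CPM in R403Q-EMPA. The R403Q-EMPA libraries held both the highest and the lowest value, and R403Q-CD lay just below WT-CD. Log2 fold changes of Erbb2 were between -0.29 and 0.13 in cardiomyocyte-like nuclei and between -0.18 and 0.05 in endocardial-like nuclei, with SEs of 0.27 to 0.32, and none was called.

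Erbb3 (ENSMUSG00000018166), which binds neuregulins and depends on a partner receptor for kinase activity, had its highest level in Schwann-like nuclei, the glia of nerve fibres. Its mean there was 320 CPM (SD 155, n = 6), from 66 UMIs in 61 nuclei, too few for a test. Cardiomyocyte-like nuclei held 478 of 607 Erbb3 UMIs. There it was at 7.65 and 7.38 CPM in WT-CD, 5.86 and 8.39 CPM in R403Q-CD, and 6.32 and 8.83 CPM in R403Q-EMPA. The groups overlapped, with log2 fold changes of -0.08, 0.02 and -0.06 (SE 0.27 to 0.28). In endocardial-like nuclei, 2 UMIs were found.

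Across ligands of the endocardium and receptors of cardiomyocytes, Nrg1 in endocardial-like nuclei was lower in both mutant groups than in WT-CD, while Erbb4 in cardiomyocyte-like nuclei was lower in R403Q-EMPA than in the 2 other groups, and neither passed the test. Hbegf in endothelial-like nuclei was higher in R403Q-EMPA and was not called. Egfr, Erbb2 and Erbb3 in cardiomyocyte-like nuclei differed by 0.30 or less on the log2 scale in the fits of all 6 libraries with the settings given above, and none was called. Other settings gave larger values, such as the 0.92 and 1.20 of Egfr with no mitochondrial filter and, with 1 library left out, -0.54 for Erbb2 and -0.35 for Erbb3.

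Of a list of 58 other genes of the pathway, 57 had a row under their symbol (Nrdc did not) and were examined in the same fits: ligands, sheddases that release them, negative regulators and downstream effectors. In cardiomyocyte-like nuclei, 51 were tested. In R403Q-CD against WT-CD, 1 was higher and 0 lower, in R403Q-EMPA against R403Q-CD 0 were higher and 1 lower, and in R403Q-EMPA against WT-CD 1 was higher and 2 lower. Over all genes of the class, 0.0905%, 0.251% and 4.02% were called in these comparisons, and 3 of 51 in the last is near that share. The median log2 fold change of the list was -0.0061, -0.03 and 0.04.

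**Figure D5:**
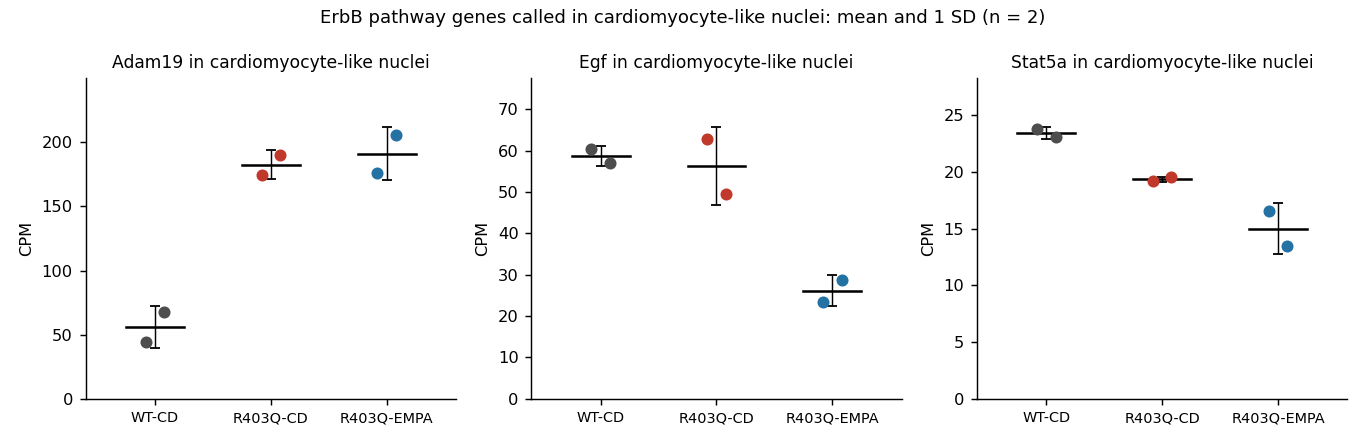
Levels (CPM, axes from 0) of the 3 other pathway genes called in cardiomyocyte-like nuclei; points are libraries, lines the mean and bars 1 SD (n = 2). Adam19 is higher in all 4 mutant libraries (174 to 206 CPM) than in WT-CD (44.6 and 67.4 CPM), and Egf is lower in R403Q-EMPA (23.4 and 28.8 CPM) than in the other 4 libraries.

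Adam19, a metalloprotease of the family that sheds neuregulins, was at 44.6 and 67.4 CPM in cardiomyocyte-like nuclei of WT-CD, 174 and 190 CPM in R403Q-CD, and 176 and 206 CPM in R403Q-EMPA. It was higher in both mutant groups, which overlapped. The log2 fold change was 1.67 (SE 0.24) in R403Q-CD against WT-CD, with an adjusted p of 0.0493 by edgeR, 1.68 (SE 0.24) in R403Q-EMPA against WT-CD, with an adjusted p of 0.00744, and 0.01 (SE 0.23) between the mutant groups. Within clusters 12, 13 and 14, the values of R403Q-CD against WT-CD were 1.86, 1.69 and 1.05, at adjusted p-values of 0.409, 0.0325 and 0.438 by edgeR. The call in the whole class was lost without R403Q-CD replicate 1 (1.72, adjusted p = 0.129) or R403Q-CD replicate 2 (1.63, adjusted p = 0.323).

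Egf, the gene of epidermal growth factor, was at 60.5 and 57.1 CPM in WT-CD, 62.9 and 49.6 CPM in R403Q-CD, and 23.4 and 28.8 CPM in R403Q-EMPA. It was lower in R403Q-EMPA, with a log2 fold change of -1.16 (SE 0.18) against R403Q-CD, at an adjusted p of 0.0443 by edgeR. The log2 fold change against WT-CD was -1.24 (SE 0.18), at an adjusted p of 0.00901 by edgeR. The values against R403Q-CD within clusters 12, 13 and 14 were -1.84, -0.83 and -1.22, at adjusted p-values of 0.331, 0.0903 and 0.0413 by edgeR. The call against R403Q-CD was lost without R403Q-CD replicate 1 (-0.97), R403Q-CD replicate 2 (-1.34) or R403Q-EMPA replicate 1 (-0.996), at adjusted p-values of 0.413, 0.123 and 0.316. Against WT-CD it was lost without R403Q-EMPA replicate 1 (-1.06, adjusted p = 0.0781). Stat5a, a transcription factor downstream of many receptors, was at 23.8 and 23.1 CPM in WT-CD, 19.2 and 19.5 CPM in R403Q-CD, and 16.6 and 13.4 CPM in R403Q-EMPA. It fell in R403Q-EMPA against WT-CD (-0.71, SE 0.17, adjusted p = 0.0466 by edgeR) and was not called in the other comparisons. Within clusters 12, 13 and 14 the values against WT-CD were 0.75, -0.49 and -1.30, with no call, so that the direction differed in cluster 12. Its call was kept without WT-CD replicate 1 and lost without any 1 of the other 5 libraries, at adjusted p-values of 0.0908 to 0.214, with fits of 4 libraries (0.117), with DESeq2 (0.0835) and with doublets kept (0.0613). With no filter on mitochondrially encoded reads, 0 genes of the list were called in R403Q-EMPA against R403Q-CD.

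In endocardial-like nuclei, 49 genes of the list were tested and 0 were called, where 0.00%, 0.757% and 1.98% of all genes were called in the 3 comparisons. At an unadjusted p under 0.05 there were 3, 4 and 6, where 3.60%, 11.0% and 14.7% of all genes were. The smallest p-values were those of Nrg2, another neuregulin gene, the ubiquitin ligase gene Cblb and Hras. Cblb, which marks activated receptors for degradation, was at 45.7 and 52.1 CPM in WT-CD, 54.1 and 48.1 CPM in R403Q-CD, and 106 and 72.7 CPM in R403Q-EMPA, and R403Q-EMPA was above both other groups (adjusted p = 0.131 and 0.0678 by edgeR). Hras was at 6.79 to 8.34 CPM in the 4 control-diet libraries and at 16.2 and 16.5 CPM in R403Q-EMPA, with adjusted p-values of 0.241 and 0.09996 by edgeR. Nrg2 had 81 UMIs, and its 23.7 CPM in R403Q-EMPA replicate 1 stood above 0 to 5.91 CPM in the other 5 libraries.

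In endothelial-like nuclei, 53 genes of the list were tested and 0 were called, where 0.00%, 0.228% and 0.783% of all genes were called, with 3, 4 and 6 at an unadjusted p under 0.05, where 3.55%, 9.62% and 12.6% of all genes were. The smallest p-values were those of the sheddase genes Adam12 and Adam17 and of Nrg4. Adam17, which releases several ligands of EGFR, was at 77.6 and 74.8 CPM in WT-CD, 95.4 and 86.9 CPM in R403Q-CD, and 102 and 99.9 CPM in R403Q-EMPA. The 3 groups did not overlap, and the log2 fold change in R403Q-EMPA against WT-CD was 0.41 (SE 0.13, adjusted p = 0.217 by edgeR). Adam12 was at 26.3 and 30.6 CPM in WT-CD and at 37.8 to 93.1 CPM in the mutant libraries. Nrg4 was at 1.74 to 6.51 CPM, lowest in the 2 R403Q-EMPA libraries.

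Genes with the most similar pattern to each of the 7 were taken by Pearson correlation of log2(CPM + 1) over 60 sums of 10 classes and 6 libraries, which share library, depth and class, among 11894 genes. For Nrg1 they were Sall1 (0.894), Adh6b (0.827) and Mal (0.824). For Egfr they were Lrp1 (0.954), Plxdc2 (0.914) and Dtx4 (0.901), and for Erbb4 they were Sh3rf2 (0.881), Fhod3 (0.879) and Shld1 (0.877). For Erbb2 they were Arhgef12, Bcar1 and Hmgn3, at 0.817 or less. Those of Hbegf (Pdlim3, Tmc7 and Ephx2), Btc (Kctd8, Echdc2 and Slc27a1) and Erbb3 (2010001K21Rik, Ktn1 and Prlr) were at 0.797 or less, on sparse counts.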

How the data were processed

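UMI counts per gene and barcode, as deposited by the authors in 1 matrix per library, were used without rescaling. According to the submitters' processing notes they were made with Cell Ranger 8.0.1 on GRCm39. Whether intronic reads were counted is not given in the sources used here. Barcodes with at least 500 UMIs, at least 300 genes and no more than 5% mitochondrial UMIs were kept, and doublets predicted per library with scrublet (scanpy 1.11.5) were removed, which took 3.68% to 6.45% of them. The counts kept totalled 23624326 to 37411887 UMIs per library. Nuclei were clustered on 2000 variable genes (30 principal components, 15 neighbours, Leiden resolution 1), leaving out 65 symbols of the pathway and the 7 genes, of which 6 rows would have been variable. Clusters were assigned to classes by 12 lists of 8 markers, and no cluster matched the adipocyte list. A cluster of 41 nuclei led by hemoglobin genes stayed unnamed.

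UMIs were summed per library and class and tested in 10 classes with at least 20 nuclei in every library, by edgeR 4.0.16 (filterByExpr, TMM, quasi-likelihood test, all 6 libraries in 1 fit, Benjamini-Hochberg adjustment within class and comparison). Library replicates differed by far more than sampling noise and were counted as 2. Intervals and floors cover counting error only. The test was also run on simulated counts, whose spread was set rather than taken from these libraries. The outcome is not used here. The alternatives were no filter on low counts, RLE scaling, DESeq2 1.42.0, fits of 4 libraries, doublets kept, no mitochondrial filter, Leiden resolution 0.5 and each library left out.

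Fold changes were named for the ligands in endocardial and endothelial nuclei, the receptors in cardiomyocyte nuclei, each gene in its highest tested class and any called combination. Other values in the text were chosen after they were seen. The 7 genes, the pathway list and the marker lists were chosen with earlier results of these data known.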

Additional observations from a re-analysis of the deposited data

Results flagged for a closer look

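Fold changes of Erbb4 in R403Q-EMPA had opposite signs in fibroblast-like and cardiomyocyte-like nuclei, of which those in cardiomyocyte-like nuclei were not called (-0.56 against R403Q-CD and -0.61 against WT-CD, adjusted p = 0.358 and 0.191 by edgeR). Pairs of classes were picked in which the compared groups did not overlap in either class, lay in opposite orders and had at least 50 UMIs of the gene in each class, and the difference of the fold changes was then tested on the same libraries. Of 15 such pairs, 3 passed, all of Erbb4 against cardiomyocyte-like nuclei. The share of all genes that passed in these fits was not counted. Since the pairs were picked for that separation and the p-values do not allow for it, they describe these libraries and are no independent evidence. In R403Q-EMPA against R403Q-CD, the log2 fold change in fibroblast-like nuclei was above that in cardiomyocyte-like nuclei by 3.96 (SE 0.50, adjusted p = 0.0120 by edgeR), and against WT-CD by 3.32 (SE 0.48, adjusted p = 0.00623). In both R403Q-EMPA libraries Erbb4 was higher than in the other 4 in fibroblast-like nuclei and lower than in the other 4 in cardiomyocyte-like nuclei. The 52 nuclei described above hold most of the fibroblast-like UMIs.

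In lymphoid-like nuclei the difference from cardiomyocyte-like nuclei was 4.62 (SE 0.80, adjusted p = 3.20e-06 by edgeR) in R403Q-EMPA against R403Q-CD. It rests on R403Q-EMPA replicate 2, which gave 28 of the 50 lymphoid-like Erbb4 UMIs, from 6 of 55 nuclei, and in which the cardiomyocyte list summed to 16688 CPM against 2379 to 4712 CPM in the other libraries. The part of that list in the value was not tested. Within lymphoid-like nuclei the log2 fold change of 4.16 was not called (adjusted p = 0.361).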

How the results depend on the processing

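With each library left out in turn, 214 of 252 fold changes kept their direction and their side of the threshold, 8 lost the call, 1 gained it and 29 changed sign, 28 of them from a size under 0.5. Over the other planned settings these were 278, 3, 4 and 9 of 294. With no filter on low counts, 1, 3 and 4 of the 7 genes' combinations were called in the 3 comparisons where 0.380%, 1.64% and 2.52% of all combinations were called, and 3, 6 and 8 of the pathway list, where 0.625%, 2.46% and 4.31% were called in its 3 classes, and Nrg1 in endocardial-like nuclei passed at -0.70 and -0.84 against WT-CD. Fits of 4 libraries called 0 combinations in R403Q-EMPA against WT-CD, where 0.637% of all were called, with Egfr in pericyte-like nuclei at 0.75 and Erbb4 in fibroblast-like nuclei at 2.67, and gave 0.0029 for Egfr in cardiomyocyte-like nuclei in R403Q-CD against WT-CD, where DESeq2 gave 0.0018 and no filter on low counts 0.011. With no mitochondrial filter, the pathway list had 2 calls for R403Q-CD against WT-CD and 0 for R403Q-EMPA against R403Q-CD, where 0.486% and 0.221% of all combinations were called, Egfr in cardiomyocyte-like nuclei was 0.92 in R403Q-CD against WT-CD and Erbb2 in endocardial-like nuclei 0.050. With doublets kept, Egfr in pericyte-like nuclei was 0.59, Egfr in cardiomyocyte-like nuclei -0.079, Erbb3 there -0.028 and Erbb2 in endocardial-like nuclei 0.031. DESeq2 gave -0.087 for Hbegf in endocardial-like nuclei. Without thinning, the mean shares were 27.6% for Nrg1 and 88.5% for Erbb4. The cause was not tested.

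Settings chosen after seeing the data bore on Erbb4. Without the cluster led by Postn, Cilp and Thbs4, the fibroblast-like values were 0.25, 0.58 and 0.84. Within clusters 3 and 5 they were 0.31 and 0.34 in R403Q-CD against WT-CD, -0.086, -0.036 and, in cluster 6, 6.72 in R403Q-EMPA against R403Q-CD, and 0.23, 0.31 and, in cluster 6, 1.30 against WT-CD. In cardiomyocyte-like cluster 13, R403Q-CD against WT-CD was 0.039.

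Over fits without 1 library, 0 to 0, 0 to 1 and 0 to 3 combinations of the 7 genes were called, and 0 to 1, 0 to 3 and 1 to 5 of the pathway list, where 0.0095% to 0.155%, 0.0445% to 1.23% and 0.290% to 2.96% of all combinations were called. In the order R403Q-CD with WT-CD first, R403Q-EMPA with R403Q-CD next and with WT-CD last, the fold changes that changed sign or call ran as follows. Nrg1 in endocardial-like nuclei ran from -0.49 to 0.31 and from -1.14 to -0.49 in the last 2 comparisons. Hbegf ran from -1.12 to 1.21 and from -0.86 to 1.46 in endocardial-like nuclei in the first 2, and from -0.0080 to 0.29 in endothelial-like and from -0.71 to 0.13 in cardiomyocyte-like nuclei in the first. In cardiomyocyte-like nuclei, Btc ran from -0.47 to 0.18 and from -0.14 to 0.52 in the first and the last, Egfr from -0.21 to 0.20 in the first, Erbb2 from -0.26 to 0.41 and from -0.54 to 0.12 in the last 2, Erbb3 from -0.34 to 0.13, -0.27 to 0.29 and -0.35 to 0.20, and Erbb4 from -0.22 to 0.17 in the first. Erbb2 in endocardial-like nuclei ran from -0.12 to 0.24 and from -0.29 to 0.065 in the last 2. Egfr ran from -0.28 to 0.11 in fibroblast-like nuclei in R403Q-EMPA against R403Q-CD and from 0.60 to 0.90 in pericyte-like nuclei against WT-CD. Erbb4 in fibroblast-like nuclei ran from -1.25 to 0.25, 3.01 to 3.83 and 2.12 to 3.61.

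Among the 10 tested classes, the one with the highest level of each gene stayed the same under the 3 new clusterings, and means per nucleus moved that of Erbb2 from endocardial-like to smooth muscle-like nuclei. Schwann-like nuclei, with the highest Erbb3, were not in that comparison. With 2 libraries per group, a fit without 1 of them takes the lone library to vary like the other groups. Depth limits Btc, Erbb3 and Nrg1 outside the endocardium, at 370 UMIs or fewer for Btc. No paired analysis was made because the labels do not pair libraries of different groups. Replicate numbers used here follow the order of the sample titles.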

Other observations

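Outside the 7 genes, and among the 10 tested classes, without Schwann-like nuclei, the EGF family ligand genes Nrg2, Nrg4 and Tgfa had their highest mean in epicardial-like nuclei. The mean of Nrg2 there was 422 CPM (SD 113, n = 6), that of Nrg4 128 CPM (SD 35.9), and that of Tgfa, the transforming growth factor alpha gene, 197 CPM. These rest on 245 nuclei. Nrg3 did not exceed a mean of 0.73 CPM in any of those 10 classes.

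In fibroblast-like nuclei, the class with the most Egfr, 2 of 52 tested genes of the pathway list were called in R403Q-EMPA against WT-CD, where 1.23% of all genes of the class were called, and 0 in each of the other comparisons. They are named after their values were seen. Errfi1, a feedback inhibitor of EGFR, was at 298 and 293 CPM in WT-CD, 394 and 414 CPM in R403Q-CD, and 487 and 557 CPM in R403Q-EMPA, changing by 0.78 on the log2 scale (SE 0.14, adjusted p = 0.0407 by edgeR). Rhbdf2, a cofactor of the sheddase ADAM17, was at 5.47 and 6.77 CPM in WT-CD, 11.2 and 11.9 CPM in R403Q-CD, and 19.6 and 13.6 CPM in R403Q-EMPA, changing by 1.401 (SE 0.24, adjusted p = 0.0364). In both, the 3 groups did not overlap.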
